A study of Mus musculus with 6 samples.

Results

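The 10 genes described here were Vegfa, which encodes vascular endothelial growth factor A (VEGF-A), and 9 genes that mark endothelial cells, the lining cells of blood vessels: Pecam1, Cdh5, Plvap, Emcn, Esam, Kdr, Flt1, Tek and Tie1. They were chosen by name for what they encode, from a table of 44713 genes and with earlier results of these data known, and no level entered the rule. Gene expression had been measured by RNA sequencing of rRNA-depleted total RNA from pancreatic islets of 6 mice, to ask how the islet transcriptome of diabetic mice differs from that of non-diabetic mice. Both groups were male, 10 weeks old and on a normal diet, and each held 3 mice. By the methods of the study, the db/db mice were BKS.Cg-Dock7m+/+Leprdb/Nju, which carry the Leprdb mutation of the leptin receptor on both copies of the gene and develop obesity and diabetes, and the db/m mice were their non-diabetic littermates. The labels give the genotypes as Lepr-/- and wild type and the strain as C57BL/6, so the strain is not the same in both sources. The control genotype differs as well, because the name db/m denotes a heterozygous carrier of Leprdb and not wild type. The mutation is carried by every cell, and body weight, food intake and blood glucose differ between such groups as well. Islets were freed from the pancreas by collagenase and collected on a density gradient, without sorting of cells.

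In islets, capillaries are dense and lined by endothelium with many small pores, called fenestrae, through which hormones reach the blood. VEGF-A is secreted by β cells and other endocrine cells and binds the receptors VEGFR2 (Kdr) and VEGFR1 (Flt1) on the neighbouring endothelium, and this supply is known to maintain the islet capillaries and their fenestrae. TIE2 (Tek), the receptor of the angiopoietins, and its partner TIE1 (Tie1) regulate the quiescence and tightness of the vessel wall.

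The islet preparations held a large share of exocrine RNA. Transcripts of 12 acinar genes (digestive enzymes) made up 51.2% to 54.9% of the counts of the db/db libraries and 40.5% to 49.5% of those of the db/m libraries. Library totals ran from 15641797 to 20614531 counts, and the normalization factors (TMM, trimmed mean of M values) from 0.605 in db/db replicate 1 to 1.75 in db/m replicate 1. These mice stood at the opposite ends: db/m replicate 1 had the highest summed level of β-cell markers and of the 9 endothelial genes and the lowest of acinar markers, and db/db replicate 1 had the reverse. For many of the genes and lists that db/m replicate 1 moved, values without that mouse are given as well. In bulk RNA, fewer cells of a type and less RNA per cell cannot be told apart. How much of the endothelial and Vegfa RNA came from islets and how much from the exocrine tissue collected with them was not tested. Levels are given as CPM, counts scaled to a common library size (per 1000000 reads, TMM-adjusted), and 3 counts in a library, the limit that a count of 0 allows, corresponded to 0.110 to 0.241 CPM.

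Promoter sequences of the ligand, its main receptor and the endothelial gene with the largest fold difference in mean level are shown, because these genes carry the comparisons that follow. They came from the RefSeq promoter table of GRCm38.p6, which matched 6 of the 10 genes (Vegfa, Kdr, Flt1, Tek, Tie1 and Emcn). Each is read 5′ to 3′ on the strand of the gene and ends just before the annotated exon. Capitals mark GC boxes (GGGCGG, or CCGCCC on the opposite strand) in Vegfa and Kdr, and ETS cores (AGGAAG, or CTTCCT on the opposite strand) in Emcn. ETS factors are a family of transcription factors active in endothelial cells. The Vegfa stretch is chr17:46032378-46032627 on the minus strand, the Kdr stretch chr5:75978459-75978705 on the minus strand and the Emcn stretch chr3:137340828-137341061 on the plus strand.
Vegfa: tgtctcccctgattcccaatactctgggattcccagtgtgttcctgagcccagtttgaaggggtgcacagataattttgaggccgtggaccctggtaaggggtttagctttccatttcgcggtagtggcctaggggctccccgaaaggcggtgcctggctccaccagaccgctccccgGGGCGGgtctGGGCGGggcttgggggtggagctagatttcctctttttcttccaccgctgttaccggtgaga
Kdr: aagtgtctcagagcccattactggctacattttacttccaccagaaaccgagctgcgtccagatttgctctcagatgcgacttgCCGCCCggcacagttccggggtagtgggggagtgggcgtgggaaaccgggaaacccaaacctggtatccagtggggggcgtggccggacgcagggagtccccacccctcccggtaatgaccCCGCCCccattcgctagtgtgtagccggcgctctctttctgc
Emcn: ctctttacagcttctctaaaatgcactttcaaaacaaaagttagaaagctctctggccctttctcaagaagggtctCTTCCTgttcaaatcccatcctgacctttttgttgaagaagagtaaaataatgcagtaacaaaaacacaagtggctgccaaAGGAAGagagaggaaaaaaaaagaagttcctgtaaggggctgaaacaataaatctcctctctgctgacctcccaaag
The letters of 3 motifs were searched on both strands of the 250 bases before each start. GC boxes were found 2 times for Vegfa, 2 times for Kdr and 3 times for Flt1, and not for Emcn, Tek and Tie1. A GC box was present in 32.7% of 32851 promoter windows of that length. ETS cores were found 2 times for Emcn, 2 times for Flt1 and 1 time for Tie1, and an ETS core was present in 29.5% of all windows. ACGTG, a form of the core of the hypoxia response element that 16.6% of all windows held, was in none of the 6 windows. The other form, GCGTG, was not searched, and its letters occur in the Kdr stretch above. A match describes letters only, and the windows do not cover elements farther from the start.

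Vegfa, the ligand, was lower in db/db islets in every comparison of one mouse with another. Its counts were 419, 688 and 809 in db/db replicates 1 to 3 and 2848, 1296 and 1259 in db/m replicates 1 to 3. After scaling, the Vegfa levels were 33.6, 41.1 and 54.4 CPM in db/db mice and 105, 75.5 and 68.2 CPM in db/m mice. All 3 db/db mice lay below all 3 db/m mice, with db/m replicate 1 highest and db/db replicate 1 lowest. Vegfa averaged 43.1 ± 10.5 CPM (SD, n = 3) in db/db and 82.7 ± 19.2 CPM (SD, n = 3) in db/m, a log2 fold change of -0.94 (SE 0.28), or 1.92-fold lower in db/db. In edgeR's quasi-likelihood test the unadjusted p was 0.00756, and the p adjusted by the Benjamini-Hochberg method over 12760 genes was 0.157. A two-sided exact permutation test over mice gave p = 0.1, the smallest p that 3 against 3 mice allow. In DESeq2 the adjusted p for Vegfa was 0.0366. Without db/m replicate 1 the log2 fold change was -0.72, with an unadjusted p of 0.0251 and an adjusted p of 0.372 in edgeR. With the acinar marker score of each mouse in the edgeR model it was -0.54 (unadjusted p = 0.0560). With the score of endocrine markers outside the β-cell list it was -0.72 (unadjusted p = 0.0147). Over the 15 alternative settings the log2 fold change of Vegfa ran from -1.57 to -0.54 and stayed below 0. Vegfa lies on chromosome 17 from 46016993 to 46032369 (minus strand, GRCm38, as are the positions given for the other genes). The deposited counts are given per gene, so its splice forms are not separated.

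**Figure D1:**
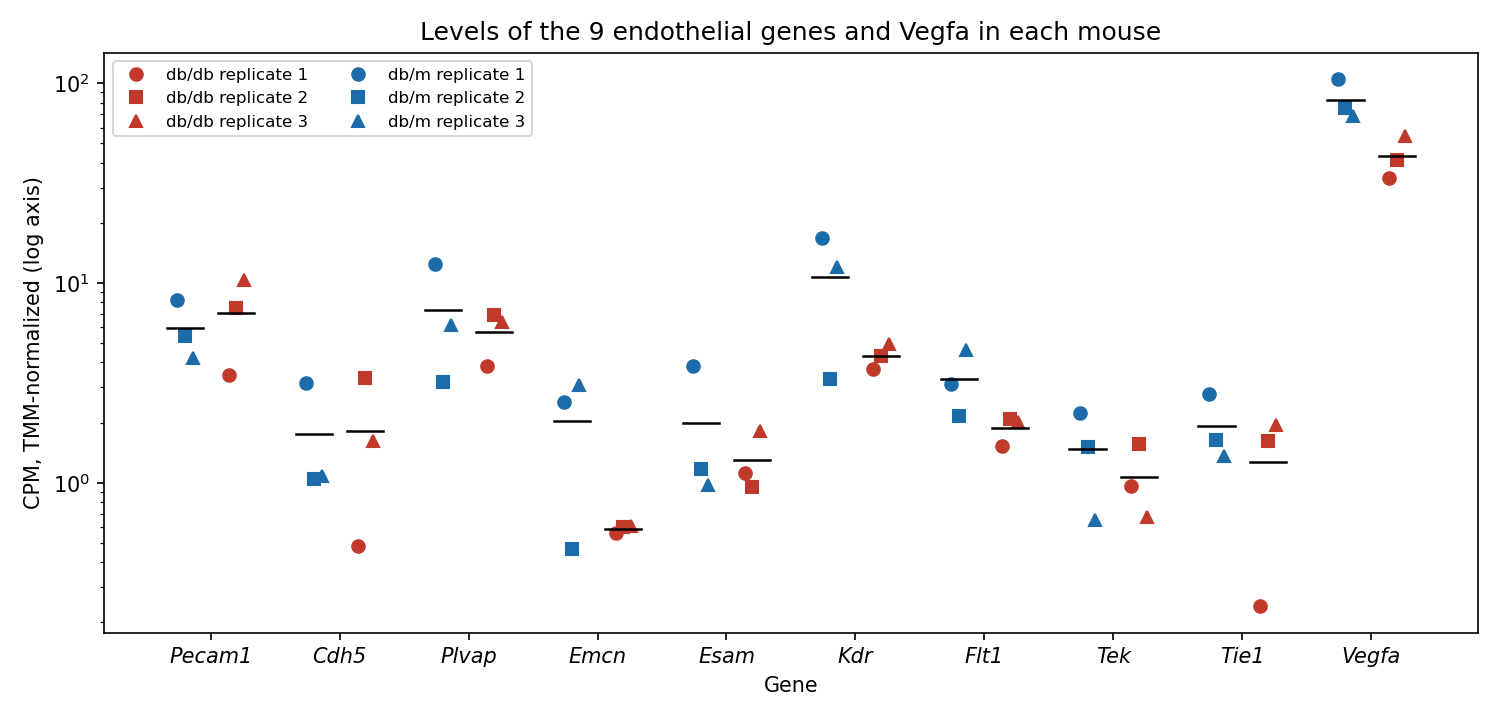
Level of each of the 10 genes in each mouse, in CPM on a log axis, with db/m mice in blue, db/db mice in red and a line at the mean of each group. For Vegfa and Flt1 the db/db mice lie below all db/m mice, and for the other genes the groups overlap.

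The 4 receptors had lower mean levels in db/db islets, and none passed the adjusted test. Kdr encodes VEGFR2, the receptor that carries most VEGF-A signalling in endothelium. Its counts were 46, 72 and 74 in db/db mice and 457, 57 and 223 in db/m mice, which gave 3.69, 4.30 and 4.98 CPM against 16.8, 3.32 and 12.1 CPM. The db/db mice were close together, whereas db/m replicate 2 had the lowest Kdr level of the 6 mice and the other two db/m mice the highest, so the groups overlapped. The mean was 4.32 ± 0.642 CPM (SD, n = 3) in db/db and 10.7 ± 6.83 CPM (SD, n = 3) in db/m, with a log2 fold change of -1.31 (SE 0.50), an unadjusted p of 0.0276 and an adjusted p of 0.269 in edgeR. The exact permutation p for Kdr was 0.4. Without db/m replicate 1 the log2 fold change of Kdr was -0.80 (edgeR, unadjusted p = 0.130), and without db/m replicate 2 it was -1.71 (adjusted p = 0.0874 in edgeR). Without a filter on low counts the adjusted p of Kdr was 0.0231 in edgeR, and 3.78% of the 23506 genes then tested had an adjusted p under 0.05. Kdr lies on chromosome 5 from 75932827 to 75978458 on the minus strand.

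Flt1 encodes VEGFR1, which binds VEGF-A tightly, signals weakly and also exists as a soluble decoy. Its counts were 19, 35 and 30 in db/db mice and 85, 37 and 85 in db/m mice. In CPM, Flt1 stood at 1.53, 2.09 and 2.02 against 3.12, 2.15 and 4.60. The groups did not overlap, but db/m replicate 2 lay only just above db/db replicate 2. The log2 fold change was -0.80 (SE 0.41), 1.75-fold lower in db/db, with an unadjusted p of 0.0793 and an adjusted p of 0.395 in edgeR. Flt1 was below 0 on the log2 scale in all 15 alternative settings (-1.33 to -0.47), and Kdr likewise (-2.01 to -0.74). Flt1 lies on chromosome 5 from 147561604 to 147726011 on the minus strand.

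Tek and Tie1 were measured with few reads. Tek, the angiopoietin receptor TIE2, had 12, 26 and 10 counts in db/db mice and 61, 26 and 12 in db/m mice, or 0.963, 1.55 and 0.672 CPM against 2.24, 1.51 and 0.650 CPM. Replicate 1 of db/m was highest and the other mice of both groups overlapped, and the log2 fold change of -0.47 (SE 0.59, adjusted p = 0.747 in edgeR) was 0.0024 without it. Tie1 had 3, 27 and 29 counts in db/db mice and 76, 28 and 25 in db/m mice, or 0.241, 1.61 and 1.95 CPM against 2.79, 1.63 and 1.35 CPM. Its count in db/db replicate 1 was at the limit that a count of 0 allows, and the remaining mice of both groups overlapped. The log2 fold change of Tie1 was -0.59 (SE 0.67), with an adjusted p of 0.712 in edgeR, and it was -0.11 without db/db replicate 1 and -0.19 without db/m replicate 1. Tek lies on chromosome 4 from 94739289 to 94874976 (plus strand) and Tie1 on the same chromosome from 118471191 to 118490061 (minus strand).

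The 5 surface and junction genes differed between the groups in either direction, and none passed the adjusted test. Pecam1 encodes CD31, an adhesion molecule of endothelial junctions that leukocytes and platelets also carry. Its levels were 3.45, 7.47 and 10.4 CPM in db/db mice and 8.26, 5.42 and 4.22 CPM in db/m mice, from 43 to 225 counts. The highest and the lowest Pecam1 level were both in db/db mice, and its log2 fold change was 0.25 (SE 0.42, adjusted p = 0.815 in edgeR). The summed level of the leukocyte markers was 6.58, 7.17 and 32.2 CPM in db/db mice and 33.4, 9.67 and 3.52 CPM in db/m mice. The mouse with the most leukocyte marker RNA in each group was also the one with the most Pecam1, and the part of leukocytes in the Pecam1 level was not tested. Pecam1 lies on chromosome 11 from 106654217 to 106750628 on the minus strand.

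Cdh5 encodes VE-cadherin, the cadherin of endothelial adherens junctions. Its counts were 6, 56 and 24 in db/db mice and 86, 18 and 20 in db/m mice, and its levels 0.482, 3.35 and 1.61 CPM against 3.16, 1.05 and 1.08 CPM. One mouse of each group was high, and the group means of 1.81 ± 1.44 and 1.76 ± 1.21 CPM (SD, n = 3 each) differed by far less than the spread. The log2 fold change was 0.04 (SE 0.71, adjusted p = 0.986 in edgeR), and it was 0.81 without db/m replicate 1. Cdh5 lies on chromosome 8 from 104101625 to 104144511 on the plus strand and is overlapped by the antisense gene Gm29682, and the sources used here do not say whether strand was used in counting.

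Plvap encodes the protein of the diaphragms that span endothelial fenestrae. Its counts were 48, 115 and 95 in db/db mice and 340, 55 and 114 in db/m mice, and its levels 3.85, 6.88 and 6.39 CPM against 12.5, 3.20 and 6.17 CPM. The highest and the lowest Plvap level were both in db/m mice. Plvap had a log2 fold change of -0.36 (SE 0.47, adjusted p = 0.755 in edgeR), which was 0.32 without db/m replicate 1. Plvap lies on chromosome 8 from 71497765 to 71511752 on the minus strand and overlaps Gtpbp3 on the other strand, so part of its reads is uncertain.

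Esam, an immunoglobulin-like adhesion molecule of endothelial junctions, had 14, 16 and 27 counts in db/db mice and 105, 20 and 18 in db/m mice. The levels were 1.12, 0.957 and 1.82 CPM against 3.85, 1.16 and 0.975 CPM, and apart from db/m replicate 1 the groups overlapped. Without the high db/m replicate 1 the log2 fold change of Esam moved from -0.64 (SE 0.62, adjusted p = 0.660 in edgeR) to 0.30. Esam lies on chromosome 9 from 37528078 to 37538319 on the plus strand.

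Emcn encodes endomucin, a sialomucin of capillary and venous endothelium, and did not pass the filter on low counts. Its counts were 7, 10 and 9 in db/db mice and 69, 8 and 57 in db/m mice, and its levels 0.562, 0.598 and 0.605 CPM against 2.53, 0.466 and 3.09 CPM. As with Kdr, the db/db mice were close together, db/m replicate 2 was the lowest of the 6 mice, and the other two db/m mice were the highest. The mean was 0.588 ± 0.0232 CPM (SD, n = 3) in db/db and 2.03 ± 1.38 CPM (SD, n = 3) in db/m, and the exact permutation p was 0.4. With no filter on low counts the log2 fold change of Emcn was -1.78 (SE 0.68, adjusted p = 0.167 in edgeR). Emcn lies on chromosome 3 from 137341067 to 137432185 on the plus strand.

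Across the 10 genes, 9 passed the filter and 0 of these had an adjusted p under 0.05 in edgeR, where 0.619% of 12760 tested genes did. At an unadjusted p under 0.05 in edgeR, 2 were lower in db/db (Vegfa and Kdr) and 0 were higher, while over all tested genes 9.89% were lower and 5.04% higher. DESeq2 gave 1 of the 9, Vegfa, an adjusted p under 0.05, and 5.55% of all genes. The groups did not overlap, with db/db lower, for 2 genes (Vegfa and Flt1), as for 12.6% of all tested genes, and for 0 genes with db/db higher, where all genes gave 8.53%. Of the 9 endothelial genes, 7 had a lower mean CPM in db/db, and 5 when db/m replicate 1 was left out. Over all tested genes and all 6 mice, 50.1% had a log2 fold change below 0. The highest level was in db/m replicate 1 for 5 of the 9 and in db/db mice for 2, and the lowest was in db/db replicate 1 for 4 and in db/m replicate 2 for 3.

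The median log2 fold change over the 8 endothelial genes tested was -0.53, from -1.31 (Kdr) to 0.25 (Pecam1), where the median of all genes was -0.00. Over the same 8 genes the median was 0.15 when db/m replicate 1 was left out, with 3 below 0 and 5 above, and with Emcn, which then passed the filter, it was 0.0024. With the acinar marker score in the model the median was 0.45, and the genes at an unadjusted p under 0.05 were Pecam1 and Cdh5, both higher in db/db. The log2 fold change was then 0.97 for Pecam1 (adjusted p = 0.361 in edgeR) and 1.38 for Cdh5 (adjusted p = 0.389 in edgeR). The share of all genes at an unadjusted p under 0.05 was not taken with this score. With the endocrine marker score in the model the median was 0.13. Thus the sign of the endothelial median depended on db/m replicate 1 and on these scores. Scaling by library size alone moved the median of all genes to -0.59 and that of the endothelial genes to -1.16, and Pecam1 and Cdh5 were then below 0.

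**Figure D2:**
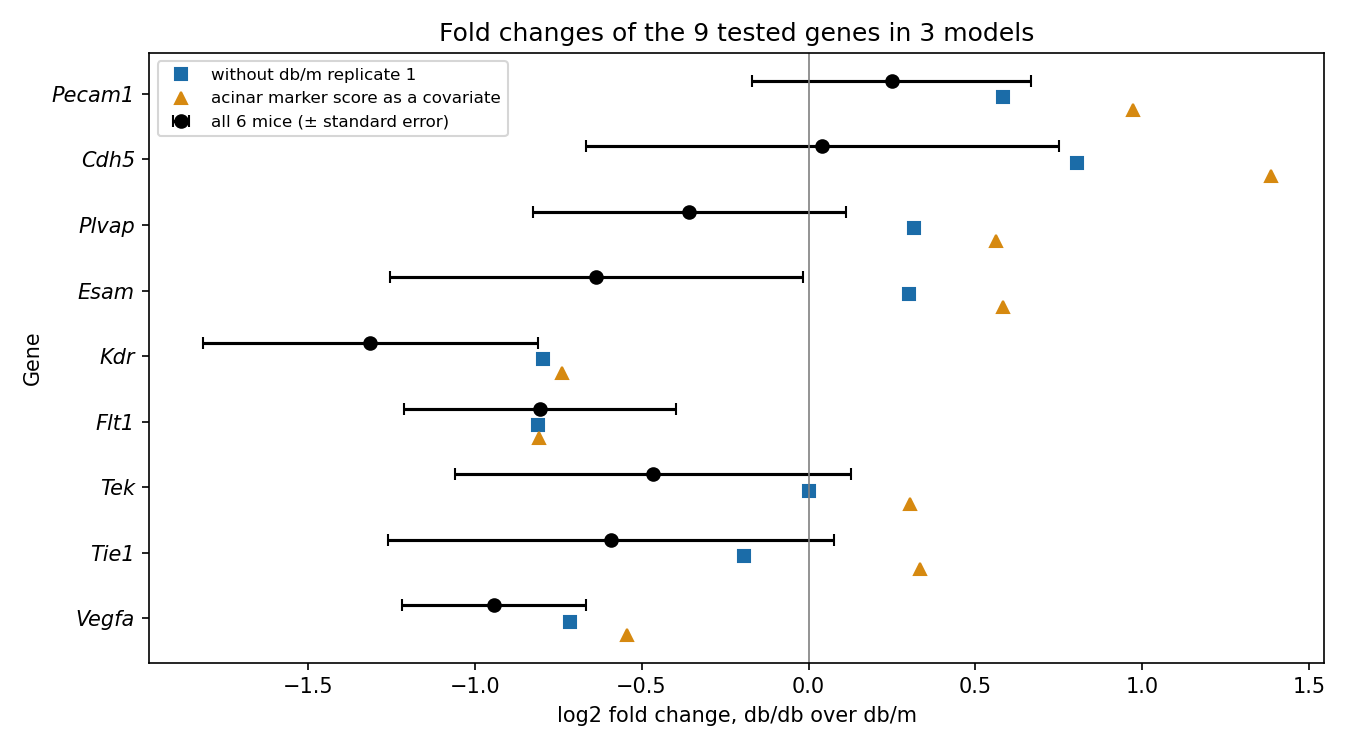
Log2 fold change of db/db over db/m islets (edgeR, horizontal axis) for the 9 tested genes, as black circles with bars of 1 standard error for all 6 mice, blue squares without db/m replicate 1 and orange triangles with the acinar marker score in the model. Vegfa, Kdr and Flt1 lie below 0 in all 3 models, Pecam1 and Cdh5 above 0, and Plvap, Esam and Tek move from below 0 to 0 or above it. Tie1 lies above 0 only with the acinar marker score.

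Compared per length of exon (RPKM, CPM per kilobase of merged exons), Vegfa was the most abundant of the 10 transcripts in both groups, with means of 19.3 RPKM in db/m and 10.05 RPKM in db/db. In db/m islets the order below it was Plvap (3.67 RPKM), Kdr (1.19), Pecam1 (0.958), Esam (0.697), Cdh5 (0.419), Tie1 (0.391), Emcn (0.375), Tek (0.311) and Flt1 (0.244). There, only Vegfa and Plvap were neighbours whose mice did not overlap. In db/db islets the order was Plvap (2.87 RPKM), Pecam1 (1.14), Kdr (0.479), Esam (0.453), Cdh5 (0.432), Tie1 (0.258), Tek (0.226), Flt1 (0.139) and Emcn (0.109). Neighbours without overlap in db/db were Vegfa and Plvap, Plvap and Pecam1, Pecam1 and Kdr, and Flt1 and Emcn. Kdr and Pecam1 thus stood in the opposite order in the groups, and in db/m their ranges overlapped.

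Ratios within a mouse do not depend on the scaling of the library. For each read of the 9 endothelial genes there were 2.12, 1.43 and 1.79 Vegfa reads in db/db mice and 1.89, 3.79 and 1.99 in db/m mice. These ranges overlapped, and the log2 ratio differed by -0.47 (0.81 ± 0.29 against 1.28 ± 0.56, SD, n = 3 each; exact permutation p = 0.4). Vegfa was also set against β-cell genes. Transcripts of insulin and amylin (Ins1, Ins2 and Iapp) made up 94.2% to 98.6% of the counts of the 10 β-cell markers. The ratio was therefore taken to the 6 genes Slc2a2, Pdx1, Nkx6-1, G6pc2, Slc30a8 and Mafa as well as to all 10. Ucn3, the remaining marker, was not among these 6, and a ratio with it added was not taken. G6pc2 had the most counts of the 6 in every mouse. The 6 also include the 4 β-cell markers with an adjusted p under 0.05 in edgeR, all lower in db/db. Against the 6 genes the ratio was 0.968, 0.514 and 0.639 Vegfa reads per β-cell gene read in db/db mice and 0.0982, 0.174 and 0.198 in db/m mice. Here the groups did not overlap. Vegfa was itself lower in db/db, so the higher ratio came from the larger fall of the 6 genes. These genes come from a list chosen with earlier results of these data known. The test and the range that follow are therefore no independent support. The mean log2 ratio was -0.55 ± 0.46 in db/db and -2.74 ± 0.54 in db/m (SD, n = 3 each), 4.54-fold higher in db/db, with the smallest p the exact permutation test allows (0.1). Leaving out each mouse in turn kept this difference between 1.88 and 2.39 on the log2 scale. Against all 10 markers the ratio was 0.0135, 0.00636 and 0.0103 in db/db mice and 0.00415, 0.00984 and 0.00858 in db/m mice. These groups overlapped, the log2 ratio differed by 0.45 (-6.70 ± 0.55 against -7.15 ± 0.67, SD, n = 3 each), and the exact permutation p was 0.4. The difference in the ratio of Vegfa to β-cell transcripts therefore depended on which β-cell genes were used.

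Between receptors of a family, no difference in ratio exceeded the spread. The ratio of Flt1 to Kdr reads was 0.413, 0.486 and 0.405 in db/db mice and 0.186, 0.649 and 0.381 in db/m mice (exact permutation p = 0.7), and the db/db values were narrower and inside the db/m range. The ratio of Tie1 to Tek reads was 0.250, 1.04 and 2.90 in db/db mice and 1.25, 1.08 and 2.08 in db/m mice (exact permutation p = 0.7).

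**Figure D3:**
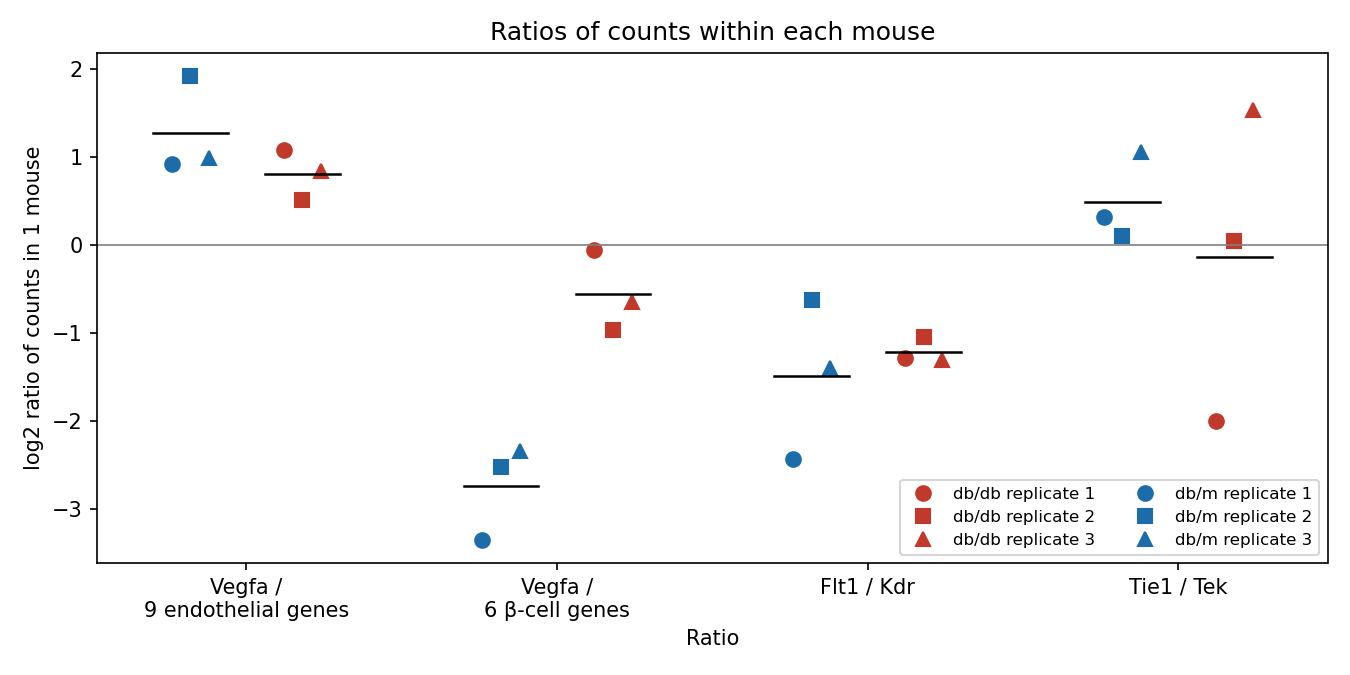
Log2 ratio of counts within each mouse (vertical axis) for Vegfa over the 9 endothelial genes, Vegfa over the 6 β-cell genes, Flt1 over Kdr and Tie1 over Tek, with 1 point per mouse (db/m blue, db/db red) and a line at the mean of each group. The groups separate in the ratio of Vegfa to these 6 β-cell genes, where db/db mice are higher, and overlap in the other 3 ratios and in the ratio to all 10 β-cell markers, which is not drawn.

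The other ligands of the VEGF and angiopoietin receptors differed among themselves. Vegfb, a ligand of VEGFR1, stood at 7.39, 6.94 and 8.07 CPM in db/db mice and 5.07, 4.78 and 5.85 CPM in db/m mice. Here the db/db mice were the 3 highest of the 6, with a log2 fold change of 0.51 (SE 0.25, unadjusted p = 0.0678 and adjusted p = 0.372 in edgeR) that turned to -0.07 with library size alone. Pgf, placental growth factor and also a VEGFR1 ligand, had a log2 fold change of -0.59 (SE 0.43, adjusted p = 0.558 in edgeR), and Angpt1, the activating ligand of TIE2, 0.53 (SE 0.52, adjusted p = 0.663 in edgeR), both with overlapping groups. These values rested on single mice: Angpt1 was at 1.39 without db/m replicate 3 (adjusted p = 0.118 in edgeR), and Pgf at -1.18 without db/db replicate 1 (adjusted p = 0.316 in edgeR). Angpt2, the context-dependent antagonist of TIE2, had 2, 6 and 2 counts in db/db mice and 20, 33 and 11 in db/m mice. All db/db mice were below all db/m mice (exact permutation p = 0.1, the smallest possible), but Angpt2 did not pass the filter. Vegfc and Figf, the ligands of the lymphatic receptor VEGFR3, were at 0 to 5 counts in every mouse but db/m replicate 1, which had 11 and 18.

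Ptprb encodes VE-PTP, the phosphatase of endothelial cells that acts on TIE2. Its levels were 4.25, 4.78 and 7.06 CPM in db/db mice and 13.5, 9.67 and 7.69 CPM in db/m mice. The groups did not overlap, and the log2 fold change of -0.94 (SE 0.31) had an unadjusted p of 0.0148 and an adjusted p of 0.209 in edgeR. Without db/m replicate 1 it was -0.67 (unadjusted p = 0.0682 in edgeR). Nrp2, a neuropilin co-receptor of VEGF, had a log2 fold change of -0.19 (SE 0.65, adjusted p = 0.907 in edgeR), and Nrp1 and Flt4 (VEGFR3) did not pass the filter, with 3 to 19 and 2 to 53 counts.

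Among the tested genes with a mean of at least 1 CPM, Ptprb also had the pattern over the 6 mice most like that of Vegfa. The root mean square difference of their centred log2 levels was 0.0772, and Ccdc92 (0.0801) and Stk36 (0.0880) followed among 11557 genes. For the mean of the 9 endothelial genes the nearest of 11550 genes were Bicc1 (0.122), Nfatc2 (0.129) and Pkm (0.142). These are descriptions over 6 mice that share 2 groups and the spread of db/m replicate 1.

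Of 25 further endothelial markers, 16 were tested, of which 12 were below 0 and 4 above, where 50.1% of all tested genes were below 0. Their median log2 fold change was -0.49. Arhgef15 was at 2, 16 and 12 counts in db/db mice and 122, 52 and 32 in db/m mice. For Arhgef15 the log2 fold change was -2.23 (SE 0.64, unadjusted p = 0.00667 and adjusted p = 0.146 in edgeR, against 0.0219 in DESeq2), and it was the one gene of the 16 at an unadjusted p under 0.05. Without db/m replicate 1 the 16 genes divided into 8 below and 8 above 0, with a median of 0.02. Of 10 endothelial transcription factors, 4 were tested, and Klf2, which blood flow induces in endothelium and which other cells such as lymphocytes also express, was lower at an unadjusted p under 0.05. Klf2 had 51, 47 and 149 counts in db/db mice and 676, 761 and 408 in db/m mice, with no overlap, and a log2 fold change of -2.43 (SE 0.48, adjusted p = 0.0654 in edgeR and 7.89e-05 in DESeq2). The 8 immediate-early genes listed (among them Fosb, Fos, Egr1 and Atf3, induced within minutes by many stimuli) were all lower at an unadjusted p under 0.05 in the same mice, 7 of them with an adjusted p under 0.05 in edgeR (median log2 fold change -3.80), and their part in the Klf2 level was not tested. Of 4 lymphatic markers, Prox1, which endocrine and other cells also express, was 2.36-fold lower (adjusted p = 0.108 in edgeR), and Pdpn was at 0 to 7 counts.

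Pericytes and smooth muscle cells, which wrap the vessels, were described by 9 markers. Of these 8 were tested, 5 below and 3 above 0, with none at an unadjusted p under 0.05 in edgeR, none with an adjusted p under 0.05, and a median of -0.40 that became 0.15 without db/m replicate 1. Their summed level was 7.71, 22.1 and 16.6 CPM in db/db mice and 27.2, 16.7 and 10.6 CPM in db/m mice, so db/db replicate 1 was again lowest and db/m replicate 1 highest. Of 15 genes of the response to low oxygen (hypoxia factors and their targets), 13 were tested, 7 below and 6 above 0 (median -0.07). Ldha, lactate dehydrogenase A, was 1.71-fold higher in db/db (unadjusted p = 0.0203, adjusted p = 0.239 in edgeR), and Ankrd37 was 4.89-fold lower from 2 to 49 counts (unadjusted p = 0.0154, adjusted p = 0.214 in edgeR). Of 6 antiangiogenic genes, 5 were tested, and Timp3, an inhibitor of metalloproteinases that also blocks VEGF-A binding to VEGFR2, was 1.89-fold lower in db/db (unadjusted p = 0.00551, adjusted p = 0.136 in edgeR) with no overlap of the groups. The list median was 0.28. It was 0.61 without db/m replicate 1, and 2 of the 5 genes were higher and 1 lower at an unadjusted p under 0.05 in edgeR. The share of all genes at that threshold was not taken without this mouse.

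The summed level of the 9 endothelial genes was 15.9, 28.8 and 30.4 CPM in db/db mice and 55.2, 19.9 and 34.2 CPM in db/m mice. Summed β-cell markers stood at 2485, 6463 and 5295 CPM against 25177, 7672 and 7948 CPM, and the other endocrine markers at 456, 1191 and 668 CPM against 3081, 1092 and 634 CPM. The mouse with the highest endothelial sum thus had the highest endocrine sums, and the mouse with the lowest endothelial sum the lowest. Between these extremes the mice stood in a different order in each sum. All 10 β-cell markers were below 0, with 4 at an adjusted p under 0.05 in edgeR (Slc30a8, Slc2a2, Nkx6-1 and Mafa). The other endocrine markers had 2 of 8 lower at an unadjusted p under 0.05 (Pcsk2 and Chga), and β cells express both of these. The hormone genes Gcg, Sst and Ppy of that list had unadjusted p of 0.435, 0.347 and 0.183 in edgeR. The median of the list was -0.83, or 0.17 without db/m replicate 1. All 12 acinar markers were above 0, none at an unadjusted p under 0.05 in edgeR. Of the 6 duct markers Krt7 was lower and Krt19 and Spp1 higher at an unadjusted p under 0.05 (median 0.53), of the 5 tested fibroblast markers 1 was higher (Lum, median 1.36), and of the 6 tested leukocyte markers 1 was lower (Cd79a, median 0.05). None of these had an adjusted p under 0.05. When db/m replicate 1 was left out, 5 of 5 fibroblast markers were higher in db/db at an unadjusted p under 0.05 in edgeR (median 3.23). Of the 6 leukocyte markers, 3 were then higher and 1 lower (median 2.18). These counts, too, have no share of all genes beside them. The 5 red blood cell markers summed to 0.299 to 2.02 CPM and none passed the filter. Beyond the fits with a marker score, the part of cell composition in the endothelial and Vegfa levels was not tested.

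**Figure D4:**
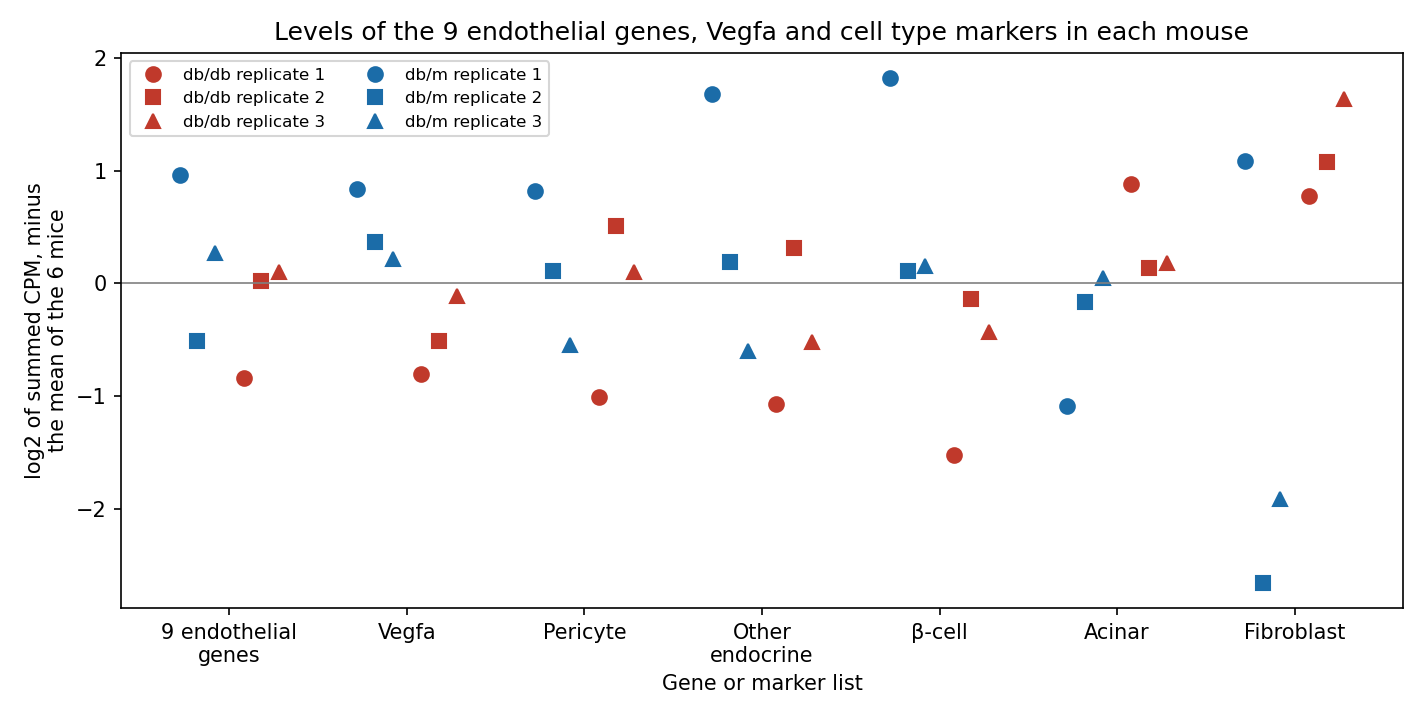
Summed CPM of the 9 endothelial genes, of Vegfa and of 5 lists of cell type markers in each mouse, as log2 values minus the mean of the 6 mice (vertical axis), with db/m mice in blue and db/db mice in red. Replicate 1 of db/m is highest and replicate 1 of db/db lowest for the endothelial genes, Vegfa, pericyte, other endocrine and β-cell markers, and the reverse holds for the acinar markers.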

How the data were processed

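Total RNA of isolated islets from 3 db/db and 3 db/m mice was depleted of rRNA and sequenced. The authors removed adaptors and low-quality reads, mapped the rest to mm10 and deposited a table of unnormalized read counts, with gene symbols as rows and mice as columns. The paper names TopHat as the aligner and the submitters' processing notes name HISAT2 2.0.4. The counting program, its annotation and its use of strand are not given in the sources used here.

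The comparison was run with edgeR 4.0.16 (R 4.3.3). Genes passed filterByExpr with its default settings, libraries were scaled by TMM, and a quasi-likelihood F-test compared the groups over all 12760 genes, with Benjamini-Hochberg adjustment and a threshold of 0.05. The method was tested on simulated data, where 191 of 200 genes changed by 3 on the log2 scale were called, with 10 false calls. Smaller changes, such as those of the 10 genes, were not simulated. Single genes and ratios were also compared by two-sided exact permutation tests over mice. Log2 fold changes are db/db relative to db/m. Exon lengths and positions came from GENCODE M21 on GRCm38 and promoters from RefSeq on GRCm38.p6. Marker scores were the mean log2(CPM + 1) of a list. Alternatives were DESeq2 1.42.0, other scalings and filters, a replicate block, marker scores as covariates, and leaving out each mouse. Counting limits cover counting error only, and reads carried no molecular identifiers. Replicate libraries of a group differed by more than sampling noise. The labels give separate mice as replicates.

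The 10 genes and all gene lists were chosen with earlier results of these data known. Named were the 10 genes, the ligands and co-receptors, up to 4 genes per other list with an unadjusted p under 0.05 by smallest p, and the 3 genes most like Vegfa and most like the endothelial mean. Leukocyte markers included Adgre1 under its older name Emr1.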

Additional observations from a re-analysis of the deposited data

How the results depend on the processing

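Genes called numbered 79 in edgeR, 707 in DESeq2, 21 with library size alone, 52 with upper-quartile factors, 888 with no filter on low counts, 180 with the endocrine marker score, 16 with the replicate block and 10 to 333 when each mouse was left out. Of the endothelial genes, 1 had an unadjusted p under 0.05. The number was 2 with library size alone, with no filter and with at least 10 counts in 3 mice. It was also 2 without genes of at least 1% of a library and with the acinar marker score (then both higher). With the endocrine marker score or the replicate block it was 0, and with a mouse left out 0 to 3. The share of all genes at this threshold was taken only in the main fit, so the other counts have no share beside them. The median log2 fold change of the endothelial genes, -0.53, was -1.16 with library size alone, 0.45 with the acinar score and 0.13 with the endocrine score. It was -0.39 with the replicate block and -0.85 to 0.0024 with a mouse left out. Directions turned for Pecam1 (-0.35 with library size alone, -0.11 without db/db replicate 3), Cdh5 (-0.59 with library size alone, -0.74 without db/db replicate 2, -0.20 without db/m replicate 2, -0.19 without db/m replicate 3), Plvap (0.56 acinar score, 0.18 endocrine score, 0.32 without db/m replicate 1), Esam (0.58, 0.17 and 0.30 in the same order), Tek (0.30, 0.093 and 0.0024 in the same order) and Tie1 (0.33 acinar score). With a mouse left out, Cdh5 ran from -0.74 to 0.81, Plvap from -0.68 to 0.32, Tie1 from -1.01 to -0.11 and Tek from -0.84 to 0.0024. With a mouse left out, the log2 ratio of Tie1 to Tek differed by -1.47 to 0.30 between the groups and turned to 0.30 without db/db replicate 1, and that of Flt1 to Kdr by -0.20 to 0.70, turning to -0.20 without db/m replicate 1. Against all 10 β-cell markers in place of 6, an alternative chosen after the data were seen, the log2 ratio of Vegfa differed by 0.45 instead of 2.18. The causes were not tested, except that scaling by library size alone moved all genes. Same-numbered mice deviated from their group means with correlations of -0.51, -0.15 and -0.32. Mice of unlike number were not compared, so these values cannot show whether the numbers pair the mice. Under the replicate block Vegfa kept a log2 fold change of -0.94 (adjusted p = 0.503 in edgeR). Vegfa, Kdr and Flt1 were below 0 in all 15 alternatives. Counts of 3 to 30 in a mouse, as for Tek, Tie1, Esam and Emcn, limit what could be seen at this depth.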
